A study of Mus musculus with 16 samples.

Results

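Antibodies to 4 proteins of hepatic detoxification, CYP2D6, CYP4F2, UGT1A1 and PON3, were followed across mouse liver tumors and control livers. They were picked by the symbol printed on the array, and 4 of the 158 antibodies on it qualified, 1 for each protein. Signals came from a reverse-phase protein array, where lysates of the tissues sit as spots on a chip and an antibody applied to it gives a fluorescence intensity per sample. All mice were males of the inbred strain C3H/HeJ and, per the design text, all had been given the liver carcinogen diethylnitrosamine (DEN) by a single injection, at 10 or 90 µg per g of body weight and an age of 2 or 6 weeks. The control livers therefore also came from mice exposed to DEN. The design text states a pause of 2 weeks, after which some mice ate 0.05% phenobarbital (PB) and the others a PB-free diet for 28 to 36 weeks. The sample characteristics instead give 27 weeks of treatment, and the treatment protocol describes 28 days of PB in drinking water. The labels tie no DEN dose, age at injection or diet length to a sample.

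The PB arm held 7 tumors with mutated Ctnnb1, the gene of the Wnt effector beta-catenin, and 3 control livers numbered 4 to 6. The arm without PB held 3 tumors with mutated Ha-ras, the GTPase that feeds the ERK kinase cascade, and 3 control livers numbered 1 to 3. Tumor genotype and PB cannot be told apart in a direct comparison of the tumors, because each genotype came from 1 arm. Whether each sample is from an animal of its own is not in the labels, and the tests rest on differences among these samples alone, and part of those may be technical.

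Liver clears drugs, hormones and waste products in steps. Cytochrome P450 enzymes such as those of the CYP2D and CYP4F families add oxygen to a substrate, and UDP-glucuronosyltransferases such as UGT1A1 then attach glucuronic acid, which makes the product soluble enough to be excreted. Human CYP2D6 oxidises many antidepressants, opioids and beta blockers, human CYP4F2 hydroxylates the ends of fatty acids and the side chains of vitamins E and K, and UGT1A1 is the enzyme that conjugates bilirubin. PON3, a paraoxonase carried on high-density lipoprotein, opens lactone rings, statin lactones among them. PB acts on hepatocytes through the nuclear receptor CAR, and human UGT1A1 is a known target of that receptor.

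The names of 2 of these antibodies refer to human genes. UGT1A1 and PON3 have mouse genes of the same name, whereas CYP2D6 and CYP4F2 do not. RefSeq's mouse annotation (GRCm38.p6) lists 8 protein-coding Cyp2d genes and 9 protein-coding Cyp4f genes, and the files do not say which of their proteins each antibody bound. The Ugt1a family has 9 protein-coding members and the Pon family 3, so the UGT1A1 and PON3 signals could likewise include relatives.

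Each sample had an intensity for all 4 antibodies. CYP2D6 and UGT1A1 were bright, at 37.5 to 79.3 and 44.4 to 150.4 times their blanks, which are rows read with the secondary antibody only. PON3 stood at 2.96 to 5.33 times its blank and CYP4F2 at 1.84 to 4.41 times, with 1 sample, Ha-ras tumor 3, under 2 times. Blanks thus made up a visible part of the CYP4F2 and PON3 signals, and subtracting them enlarged some differences of both antibodies and shrank others. Intensities of different antibodies do not compare the amounts of their proteins. Values below are relative signals, meaning the intensity divided by the sample's median over the 155 antibodies that were positive in all samples. That median ran from 0.517 to 0.737 in the PB arm and from 0.450 to 0.528 in the arm without PB, so the deposited intensities and the relative signals can rank the same samples differently.

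The labels were checked on other antibodies. The phosphorylated ERK1 antibody (MAPK3_P-T202/Y204) was higher in Ha-ras tumors than in their control livers by 2.01 ± 0.24 on the log2 scale (± SE, limma adjusted p = 8.15e-05). The HRAS antibody was not higher there, at -0.16 ± 0.13 (limma adjusted p = 0.555). The CTNNB1 antibody differed by 0.78 ± 0.43 in the same comparison (limma adjusted p = 0.321). That comparison holds no Ctnnb1 tumors, so this value does not check their label. Glutamine synthetase (GLUL), a beta-catenin target, read 15.3 to 91.6 in 6 of 7 Ctnnb1 tumors and had no positive value in Ctnnb1 tumor 6. Control livers of the PB arm read 3.69 to 49.7 and overlapped with those tumors, so GLUL did not separate them (log2 difference 1.53 ± 1.26, limma adjusted p = 0.470). That tumor also had the lowest signal of CYP1A2_1 among the 7, at 1.92 against 18.3 to 37.2 in the others, and the limma differences of the 4 enzymes in Ctnnb1 tumors are also given without it. Of 11 hepatocyte marker symbols 2 were on the array, HNF4A and PPARA, and HNF4A read 2.03 to 3.53 in the 16 samples. No marker of stellate, endothelial, biliary or white blood cells was on the array, so fewer hepatocytes and less protein per hepatocyte cannot be told apart.

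CYP2D6 was highest in control livers of the PB arm. Its relative signal there was 22.8, 23.5 and 24.6, against 21.0, 20.5 and 16.9 in control livers without PB. Ha-ras tumors read 17.9, 16.2 and 18.6, and Ctnnb1 tumors ran from 16.1 through a median of 18.3 to 21.8. All 3 control livers of the PB arm stood above every other sample of the study, and the other 3 groups overlapped one another. By group mean the order was PB control liver (23.6 ± 0.929, SD, n = 3), control liver without PB (19.5 ± 2.24, n = 3), Ctnnb1 tumors (18.5 ± 2.16, n = 7) and Ha-ras tumors (17.6 ± 1.21, n = 3). Neighbours after the first in that order did not differ beyond their spread.

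CYP4F2 varied within a narrow range. Control livers of the PB arm read 0.700, 0.764 and 0.749, and those without PB read 0.615, 0.631 and 0.593. Ha-ras tumors stood at 0.592, 0.516 and 0.628, and Ctnnb1 tumors ran from 0.526 through 0.635 to 0.761. Control livers of the 2 arms did not overlap, whereas Ctnnb1 tumors spanned nearly the whole range of the study. Group means were 0.738 ± 0.0337 (SD, n = 3) in PB control liver, 0.622 ± 0.0858 (n = 7) in Ctnnb1 tumors, 0.613 ± 0.0189 (n = 3) in control liver without PB and 0.578 ± 0.0571 (n = 3) in Ha-ras tumors. All neighbours in that order overlapped.

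UGT1A1 had the widest range of the 4 antibodies. Control livers of the PB arm read 14.6, 22.7 and 13.4, against 9.45, 8.14 and 8.30 in control livers without PB and 7.27, 8.15 and 7.98 in Ha-ras tumors. Ctnnb1 tumors ran from 7.58 through a median of 12.01 to 19.6. Ctnnb1 tumors 1, 2 and 3, at 7.58, 7.72 and 8.35, lay among the samples without PB, while tumors 4, 5, 6 and 7 lay at 15.3, 19.6, 12.01 and 13.0, above every sample of that arm. The same 3 tumors were also the lowest 3 of the 7 for CYP4F2, at 0.554, 0.526 and 0.543. Group means of UGT1A1 were 16.9 ± 5.05 (SD, n = 3) in PB control liver, 11.9 ± 4.50 (n = 7) in Ctnnb1 tumors, 8.63 ± 0.716 (n = 3) in control liver without PB and 7.80 ± 0.467 (n = 3) in Ha-ras tumors, and neighbours overlapped.

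PON3 levels were close in all 4 groups, with the highest group mean 1.25 times the lowest. It read 1.46, 1.47 and 1.71 in control livers of the PB arm and 1.37, 1.30 and 1.03 in those without PB. Ha-ras tumors read 1.33, 1.09 and 1.31, and Ctnnb1 tumors ran from 1.23 through 1.39 to 1.51. The PB control livers stood above the controls without PB and above all Ha-ras tumors, and overlapped with the Ctnnb1 tumors. Group means were 1.55 ± 0.142 (SD, n = 3) in PB control liver, 1.41 ± 0.103 (n = 7) in Ctnnb1 tumors, 1.25 ± 0.132 (n = 3) in Ha-ras tumors and 1.24 ± 0.178 (n = 3) in control liver without PB, and neighbours overlapped.

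**Figure D1:**
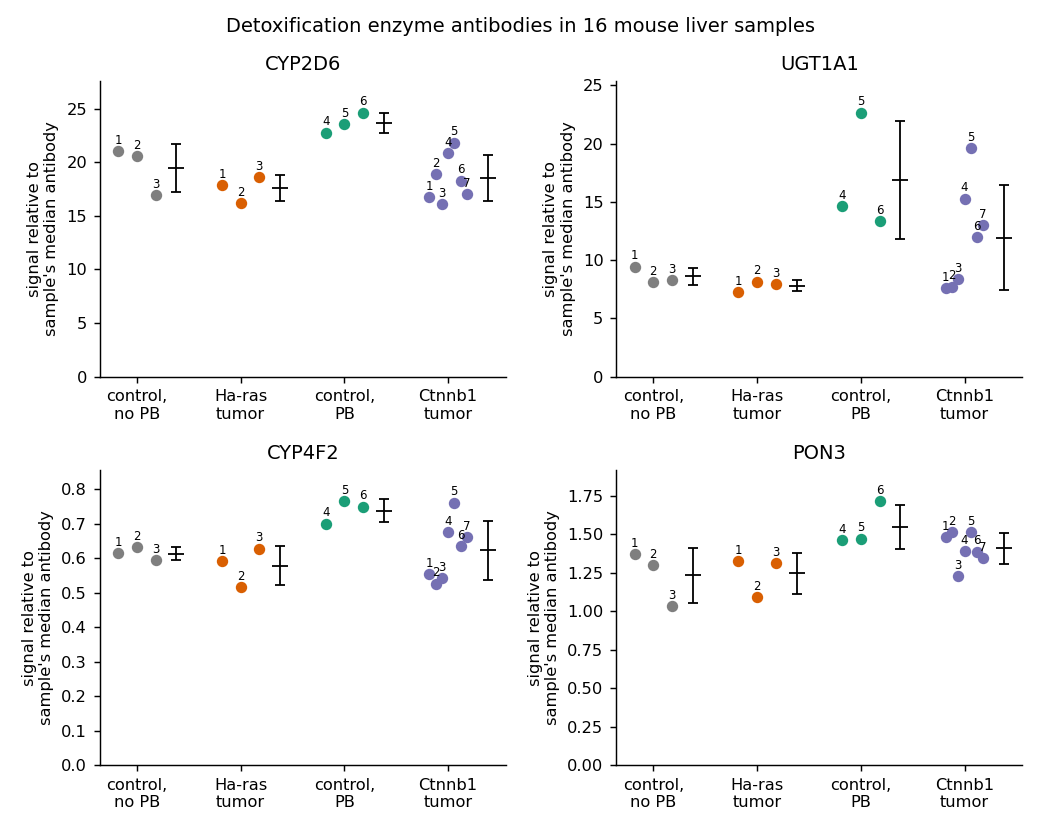
Relative signal (intensity divided by the sample's median antibody, linear axis) of CYP2D6, CYP4F2, UGT1A1 and PON3, 1 panel each, with 1 point per sample labelled by its replicate number and bars for the group mean ± SD (n = 3, or 7 for Ctnnb1 tumors). The 3 PB control livers lie above the 3 control livers without PB in every panel, and Ctnnb1 tumors 1, 2 and 3 lie apart from the other 4 for UGT1A1.

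Control livers of the 2 arms were compared for the difference that goes with PB in non-tumor liver. The labels tie no DEN dose, age at injection or diet length to a sample. If the arms differ in these, PB cannot be told apart from them. All 4 antibodies gave higher values with PB, each in 3 of 3 samples above every control without PB, and none passed the test over all antibodies. The ratio of geometric means, taken from the log2 differences, was 1.91 for UGT1A1, 1.26 for PON3, 1.22 for CYP2D6 and 1.20 for CYP4F2. For UGT1A1 the difference was 0.93 ± 0.31 on the log2 scale (± SE, 95% interval 0.26 to 1.60, limma adjusted p = 0.267). PON3 differed by 0.33 ± 0.13 (interval 0.06 to 0.60, limma adjusted p = 0.346). CYP2D6 differed by 0.28 ± 0.13 (interval 0.01 to 0.56) and CYP4F2 by 0.27 ± 0.13 (interval -0.02 to 0.55), both at a limma adjusted p of 0.498. These intervals are for 1 antibody at a time and are not adjusted for the number of antibodies.

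Of all antibodies, 1.9% passed at an adjusted p under 0.05 in this comparison, and 8.86% had an unadjusted p under 0.05, among them 3 of these 4 (all but CYP4F2). Groups that did not overlap and were higher with PB made up 20.9% of all antibodies on relative signals and 40.5% on deposited intensities, the background for the 4 of 4 seen here on both scales. The median difference of the 4 was 0.31 on the log2 scale, and that of all 158 antibodies was 0.06. Among 3 against 3 samples the exact permutation test (two-sided) cannot go below p = 0.1, and each of the 4 antibodies gave that value. The call of UGT1A1 depended on the scale. On the deposited intensities without division by the sample median its difference was 1.14 on the log2 scale and passed (limma adjusted p = 0.0301), while the median over all antibodies was then 0.27. On that scale 5 of all 158 antibodies passed. After quantile normalization UGT1A1 differed by 0.26 (adjusted p = 0.740) and the sign of CYP2D6 turned, at -0.09. PB control liver 5, the brightest for UGT1A1, moved its value as well, which was 0.70 without that sample (limma adjusted p = 0.910).

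**Figure D2:**
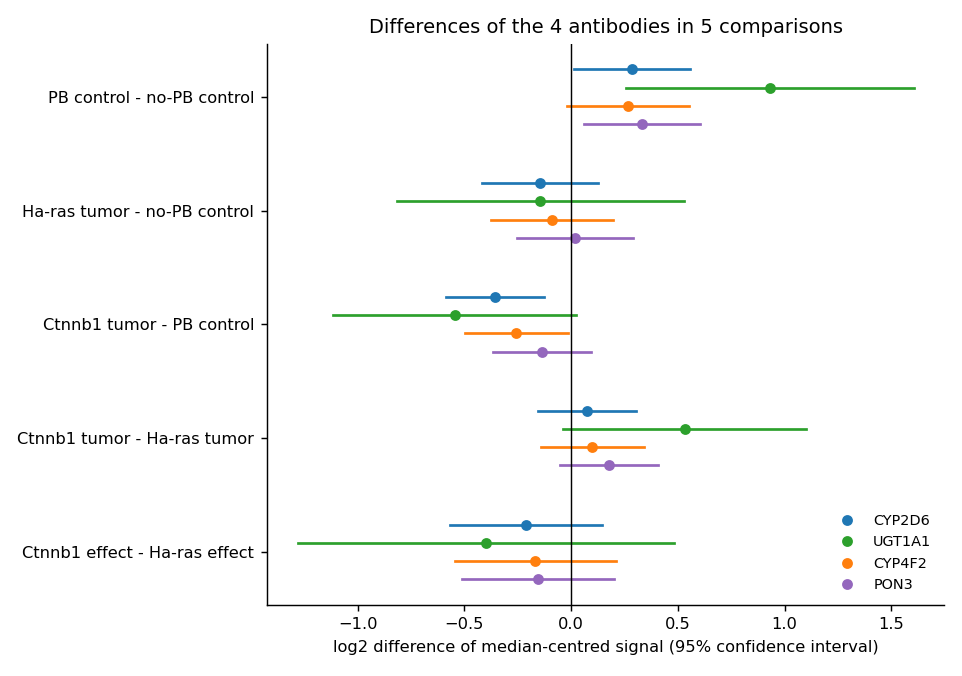
Differences on the log2 scale (points) with 95% intervals from limma (lines) for the 4 antibodies in 5 comparisons, with a vertical line at no difference. The points of PB control liver minus control liver without PB all lie to the right of that line, those of Ctnnb1 tumors minus PB control liver all lie to its left, and no antibody passed the adjusted p of 0.05.

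Ctnnb1 tumors were then set against control liver of the same PB arm. All 4 antibodies gave lower mean values in the tumors, and none passed the test over all antibodies. CYP2D6 stood lower in 7 of 7 tumors than in any of the 3 control livers, CYP4F2 in 6 of 7, UGT1A1 in 5 of 7 and PON3 in 4 of 7. CYP2D6 differed by -0.36 ± 0.11 on the log2 scale (± SE, 95% interval -0.59 to -0.13, limma adjusted p = 0.250), a geometric mean 0.780 times that of the controls. By p it ranked 3rd of the 158 antibodies, and its adjusted p was tied with that of others. CYP4F2 differed by -0.26 ± 0.11 (interval -0.50 to -0.01, limma adjusted p = 0.292). The UGT1A1 difference was -0.54 ± 0.27 (interval -1.11 to 0.02, limma adjusted p = 0.324) and that of PON3 was -0.14 ± 0.11 (interval -0.37 to 0.09, limma adjusted p = 0.462).

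No antibody passed in this comparison with limma (0% of 158), and 15.8% had an unadjusted p under 0.05, among them CYP2D6 and CYP4F2. Tumors lay below every control liver for 8.23% of all antibodies on relative signals. The median difference of the 4 was -0.31 and that of all antibodies -0.14. The two-sided exact permutation test gave CYP2D6 p = 0.0167, the smallest that 7 against 3 samples allow. It gave 0.05 for CYP4F2, 0.15 for UGT1A1 and 0.167 for PON3, as 4 of 16 such tests run here. Without Ctnnb1 tumor 6 the limma differences were -0.36 for CYP2D6, -0.26 for CYP4F2, -0.56 for UGT1A1 and -0.13 for PON3. Without PB control liver 5 the UGT1A1 difference was -0.31 (adjusted p = 0.691). With the replicate number as a block within the arm, only tumors and control livers 4 to 6 inform the difference. It was then -0.099 for UGT1A1, -0.098 for CYP4F2, -0.22 for CYP2D6 and -0.11 for PON3. Ctnnb1 tumors 1, 2, 3 and 7 did not count in that fit, and tumors 1, 2 and 3 were the lowest for UGT1A1.

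The separation of CYP2D6 held on 1 of 3 scales. On the deposited intensities 5 of 7 Ctnnb1 tumors lay below every PB control liver, and the difference was -0.26 on the log2 scale. The authors' deposited log2 values placed 5 of 7 tumors below the controls and 1 above, with a difference of -0.17. PON3 turned sign, at 0.07, when samples were scaled to the Alexa647 reference rows, and at 0.02 on the authors' values.

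**Figure D3:**
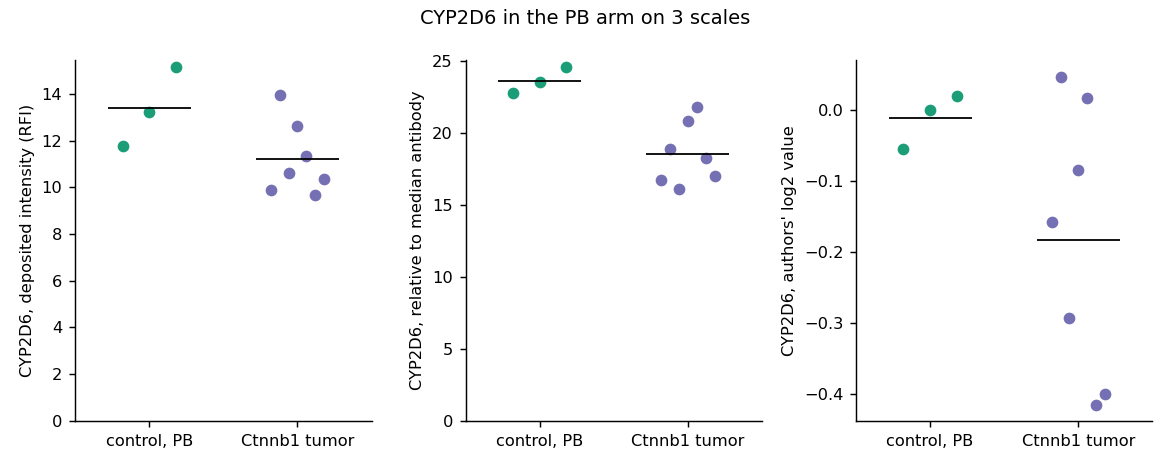
CYP2D6 in 3 PB control livers and 7 Ctnnb1 tumors on 3 scales, 1 panel each (relative signal, deposited intensity and the authors' log2 values), with 1 point per sample and horizontal lines for the group means. All 7 tumors lie below the controls on relative signals, and 5 of 7 do on each of the other scales.

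In the arm without PB, Ha-ras tumors and their control livers overlapped for all 4 antibodies. Among all antibodies 26.6% showed no overlap, so most of them overlapped as well. On the log2 scale CYP2D6 differed by -0.15 ± 0.13 (± SE, 95% interval -0.42 to 0.13, limma adjusted p = 0.607) and CYP4F2 by -0.09 ± 0.13 (interval -0.38 to 0.20, adjusted p = 0.755). UGT1A1 differed by -0.14 ± 0.31 (interval -0.82 to 0.53, adjusted p = 0.851) and PON3 by 0.017 ± 0.13 (interval -0.26 to 0.29, adjusted p = 0.943). The intervals leave room for UGT1A1 to lie anywhere from 0.568 to 1.44 times its control level, and for PON3 from 0.838 to 1.22 times. Of all antibodies 13.9% passed in this comparison, and the median difference was -0.12 for the 4 and -0.0016 for all. Two-sided exact permutation p-values ran from 0.2 for UGT1A1 to 0.8 for PON3, with 0.1 the smallest possible. The signs of CYP2D6, CYP4F2 and UGT1A1 turned when samples were scaled to the Alexa647 rows, where the median of all antibodies was 0.17, and that of PON3 turned when the blank was subtracted.

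The tumors of both genotypes were compared directly, a contrast in which PB goes with Ctnnb1. On relative signals no antibody of the 4 passed and both groups overlapped for each, with no overlap for 16.5% of all antibodies. UGT1A1 differed by 0.53 ± 0.27 on the log2 scale (± SE, 95% interval -0.04 to 1.10, limma adjusted p = 0.214), with 5 of 7 Ctnnb1 tumors above every Ha-ras tumor. PON3 differed by 0.18 ± 0.11 (interval -0.05 to 0.41, adjusted p = 0.346) with 6 of 7 above. CYP4F2 differed by 0.099 ± 0.11 (interval -0.14 to 0.34, adjusted p = 0.635) and CYP2D6 by 0.073 ± 0.11 (interval -0.16 to 0.30, adjusted p = 0.711). The median of the 4 was 0.14, that of all antibodies -0.11, and 19% of all antibodies passed. Without Ctnnb1 tumor 6 the differences were 0.52 for UGT1A1, 0.18 for PON3, 0.092 for CYP4F2 and 0.075 for CYP2D6.

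Deposited intensities gave another picture of the same tumors. All 7 Ctnnb1 tumors then lay above every Ha-ras tumor for all 4 antibodies, against 13.3% of all antibodies with such a separation. CYP4F2 (0.37 on the log2 scale, limma adjusted p = 0.0393) and UGT1A1 (0.80, adjusted p = 0.0304) then passed, while the median over all antibodies was 0.16. After quantile normalization UGT1A1 differed by 0.052 (adjusted p = 0.885). CYP2D6 went the other way there, at -0.68 (adjusted p = 0.0263). On relative signals HNF4A, a hepatocyte transcription factor, fell below the Ha-ras level in Ctnnb1 tumors. The drop was 0.49 ± 0.11 on the log2 scale (limma adjusted p = 0.00442). HNF4A in PB control liver, at 2.66 to 2.99, also lay below all Ha-ras tumors, at 3.15 to 3.53. Control liver without PB read 2.90 to 3.32 for HNF4A. As deposited, its median intensity was 1.77 in Ha-ras and 1.46 in Ctnnb1 tumors, and the groups overlapped. PPARA, the other hepatocyte marker, gave mixed median relative signals. For Ha-ras and then Ctnnb1 tumors they were 2.65 and 2.19 (PPARA_2), 0.336 and 0.328 (PPARA_1), and 0.299 and 0.303 (PPARA_3). The part of HNF4A in the results of the 4 enzymes was not tested.

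Whether the tumor effect differed between the arms was tested as the difference of both tumor-minus-control differences. It was -0.40 ± 0.41 on the log2 scale for UGT1A1 (± SE, limma adjusted p = 0.675) and -0.21 ± 0.17 for CYP2D6 (adjusted p = 0.578). CYP4F2 gave -0.17 ± 0.18 (adjusted p = 0.675) and PON3 -0.15 ± 0.17 (adjusted p = 0.676). Of all antibodies 5.06% passed, and the median was -0.19 for the 4 and -0.16 for all 158. A difference between the arms was thus not shown for these enzymes, and the 95% interval of UGT1A1, -1.28 to 0.48, covers large effects in either direction. Leaving out Ctnnb1 tumor 6 gave -0.42 for UGT1A1, -0.21 for CYP2D6, -0.17 for CYP4F2 and -0.15 for PON3.

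Ratios between 2 of these antibodies within a sample do not depend on the factor by which a sample is divided, although quantile normalization, which is not such a factor, changes them. The log2 ratio of CYP2D6 to UGT1A1 was lower by 0.65 in PB control liver than in control liver without PB, and that of CYP4F2 to UGT1A1 was lower by 0.66, each in 3 of 3 samples below every control without PB. These were the only 2 of the 6 pairs to separate, a share near the 26.4% of all antibody pairs that separated in either direction. Without PB control liver 5 these differences were -0.41 and -0.46, and after quantile normalization -0.35 and -0.084. The log2 ratio of CYP2D6 to CYP4F2 differed by 0.018 there, and the groups overlapped. In Ha-ras tumors the ratio of CYP2D6 to PON3 was 0.16 lower on the log2 scale than in control liver, in 3 of 3 tumors below every control. It was the only pair of the 6 to separate there, a smaller share than the 32.9% of all antibody pairs that separated in either direction. After quantile normalization the sign of that difference turned, at 0.36. In Ctnnb1 tumors against PB control liver the same ratio was 0.22 lower, in 5 of 7 tumors below every control (two-sided exact permutation p = 0.05, 0.3 after adjustment over the 6 pairs). No pair passed after adjustment against PB control liver or against Ha-ras tumors, and 3 against 3 samples were not tested.

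Spread within groups set UGT1A1 apart from the others. The SD of its log2 signal was 0.53 in Ctnnb1 tumors, the 19th largest of 158 antibodies, and 0.41 in PB control liver, the 8th largest. In samples without PB it was 0.12 in control liver and 0.088 in Ha-ras tumors, so both groups of the PB arm had the larger spreads. The median SD of all antibodies was 0.21 in Ctnnb1 tumors, 0.11 in PB control liver, 0.14 in control liver without PB and 0.21 in Ha-ras tumors. PON3 was among the steadiest antibodies in Ctnnb1 tumors, with an SD of 0.11 and rank 149 from the largest. Highest over lowest Ctnnb1 tumor was 2.59-fold for UGT1A1, 1.45-fold for CYP4F2, 1.36-fold for CYP2D6 and 1.23-fold for PON3.

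Similarity of patterns was measured as Pearson's r of the log2 relative signal over the 16 samples, which share the scaling of each sample and fall into 4 groups, so r is a description. UGT1A1 was most like CYB5A, the microsomal electron carrier cytochrome b5 (r = 0.89, Spearman's rho 0.89, 0.81 within groups). Next came the transcription factor STAT5A (r = 0.87, rho 0.85, 0.78 within groups) and CYP4F2 (r = 0.87, rho 0.83, 0.83 within groups). Within groups means that each group's mean had been subtracted. CYP4F2 in turn was most like STAT5A (r = 0.87, rho 0.93) and UGT1A1, followed by CYP2D6 (r = 0.82, rho 0.79). CYB5A was read against the same blank as CYP4F2, while UGT1A1 and STAT5A each had another.

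CYP2D6 was most like PON1, the paraoxonase that, like PON3, circulates on high-density lipoprotein (r = 0.86, rho 0.77, 0.75 within groups), then CYP4F2 and CYP1A1_2 (r = 0.82, rho 0.85). PON3 was most like CYP1A1_2 (r = 0.77, rho 0.72, 0.85 within groups), CYP2D6 (r = 0.69, rho 0.65) and CYP2C8 (r = 0.67, rho 0.74, 0.45 within groups). CYP2D6, PON3, PON1 and CYP1A1_2 were all read against 1 blank. UGT1A1 and PON3 had the weakest relation among the 4, at r = 0.48 and at -0.011 within groups.

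**Figure D4:**
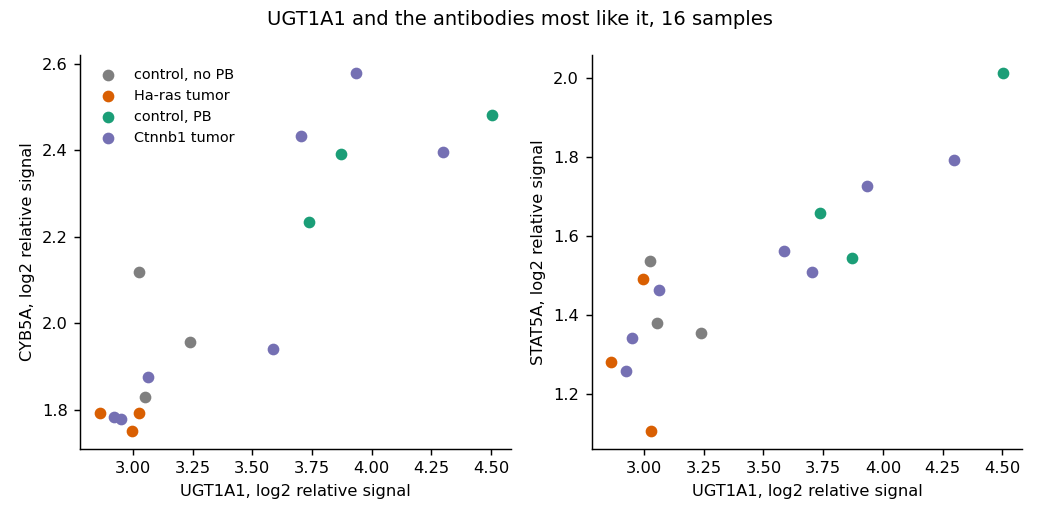
Log2 relative signal of CYB5A and of STAT5A (vertical axes, 1 panel each) against that of UGT1A1 (horizontal axes), with 1 point per sample in the colour of its group (16 samples). Samples without PB lie at the low end of the UGT1A1 axis in both panels, Ctnnb1 tumors 1, 2 and 3 lie near them, and r was 0.89 for CYB5A and 0.87 for STAT5A.

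The 4 enzymes were read beside the 16 other detoxification antibodies of the array. With PB in control liver 3 of these 16 were higher, CYP2C8 (5.62-fold, limma adjusted p = 1.18e-05), CYP2B6_1 (3.06-fold, adjusted p = 0.00468) and the P450 electron donor POR (2.38-fold, adjusted p = 0.00965). The other CYP2B6 antibodies did not pass with PB. CYP2B6_3 differed by 3.04 on the log2 scale (limma adjusted p = 0.0801) and CYP2B6_2 by 0.061 (limma adjusted p = 0.892). CYP2C and CYP2B enzymes are well known PB targets. The 4 enzymes, at ratios of 1.20 to 1.91, lay on the same side as the other 16, whose median difference was 0.68 on the log2 scale. In Ha-ras tumors 5 of the 16 were lower than in control liver and none was higher. They included CYP2C8 (2.68-fold lower, adjusted p = 0.0024) and both CYP2E1 antibodies (6.14-fold and 3.80-fold lower, adjusted p = 0.00378 and 0.00823), enzymes of the perivenous liver. CYP2B6_3 passed as well, at -4.99 on the log2 scale (adjusted p = 0.0024), from 2 of 3 Ha-ras tumors, of which 1 was under 2 times its blank, since the third had no positive value. The other CYP2B6 antibodies gave -0.067 (CYP2B6_1) and 0.020 (CYP2B6_2) and did not pass. CYP2D6, CYP4F2 and UGT1A1 stood at 0.904, 0.940 and 0.905 times control level there.

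Ctnnb1 tumors showed no call among the 16 against PB control liver with limma, 1 of them had an unadjusted p under 0.05, and their median was -0.19 on the log2 scale against -0.31 for the 4. Against Ha-ras tumors 8 of the 16 were higher and none lower, with CYP2C8 (12.1-fold, adjusted p = 8.67e-09), POR (3.80-fold, adjusted p = 7.12e-06) and CYP2E1_1 (5.24-fold, adjusted p = 0.000174) among them. The median of the 16 was 1.09 on the log2 scale, and that of the 4 was 0.14. In the test of the difference between the arms 1 of the 16 passed, CYP2B6_3, again without 1 Ha-ras tumor, and none of the 4 did. That count for the whole list of 20 was 4 without Ctnnb1 tumor 6, and 0 on the authors' values. Between the tumors it was 9 without Ctnnb1 tumor 6.

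**Figure D5:**
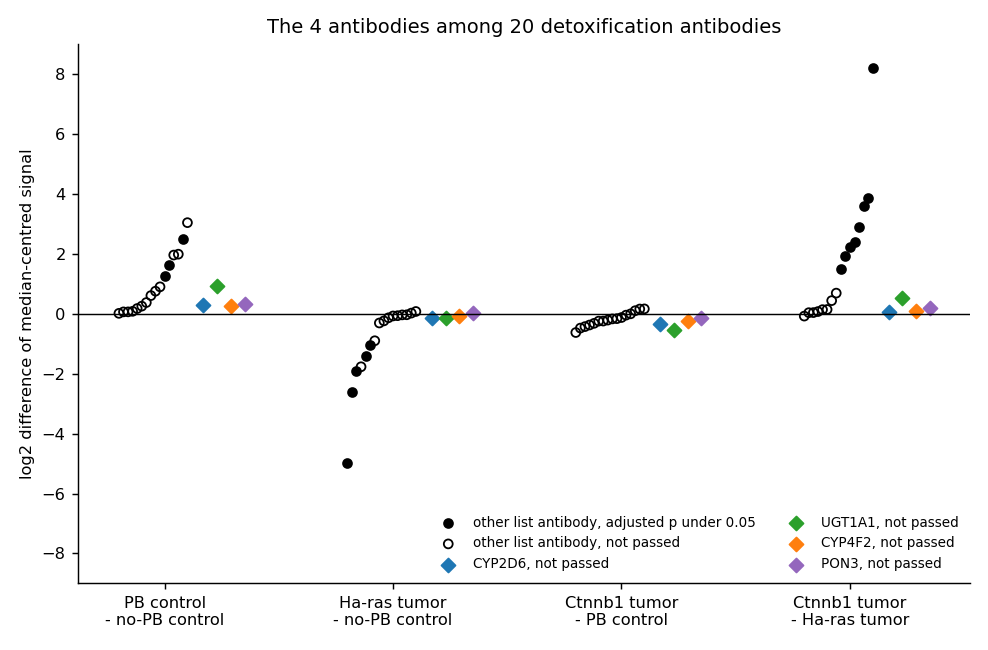
Differences on the log2 scale for the 20 detoxification antibodies of the array (vertical axis) in 4 comparisons (columns), with circles for the 16 other antibodies, filled at a limma adjusted p under 0.05, and coloured diamonds for the 4 enzymes. Filled circles appear for 3 antibodies with PB, 5 in Ha-ras tumors, none in Ctnnb1 tumors against control liver and 8 between the tumors, and CYP2D6, CYP4F2, UGT1A1 and PON3 passed in none of the 4.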

How the data were processed

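The deposited sample files hold an intensity (relative fluorescence, never log transformed) for 158 antibodies, 19 blanks and 6 Alexa647 reference rows. Per the labels' protocols, ground frozen liver was lysed under denaturing conditions and read with fluorescent anti-species secondary antibodies. Any scaling by the authors ahead of deposit is not stated in the labels or headers. The authors' deposited value table holds log2 values centred on each arm's own control livers, so it served as an alternative for comparisons within an arm. Setting it against the intensities gave each antibody's blank (146 of 158 matched within 0.01 log2 in at least 12 samples).

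Intensities were log2 transformed and centred on each sample's median over 155 antibodies. The 3 values that were not positive were set missing, none of them of the 4 enzymes. Blanks were not subtracted. A model with a mean for each of the 4 groups was fitted to all 158 antibodies with limma 3.58.1 in R 4.3.3 (12 residual degrees of freedom and 2.65 prior ones), with Benjamini-Hochberg adjustment within each of 5 comparisons and a threshold of 0.05. The fit was also run on simulated data with independent noise and no shared sample effects. That run does not test the scaling or a pairing of samples. Exact permutation tests were two-sided. The number of samples limits the precision, and arrays give no counting depth. For each enzyme the 3 antibodies with the highest r were named, and of the detoxification list up to 4 with the smallest adjusted p per comparison. The 4 enzymes and all lists were chosen with earlier results of these data known. Alternatives covered scaling, blank subtraction, a filter on dim antibodies (140 kept), array weights, the authors' values, only the groups compared, replicate blocks and leaving out each sample. Same-numbered tumor and control samples deviated together with correlations of 0.075 to 0.65, not all over 0.1, so numbers were not taken as pairs. Such correlations do not exclude pairing.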

Additional observations from a re-analysis of the deposited data

How the results depend on the processing

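Over 20 differences of the 4 enzymes, 334 of 356 alternative values kept direction and side of the threshold, 18 changed sign and 4 passed with the same sign. Of the 356, 192 only left out 1 sample. Among the other 164, 145 kept both, 15 changed sign and 4 passed with the same sign. The filter on dim antibodies and the fit of only the groups compared cannot change a difference, so these counts do not measure robustness. For Ha-ras tumors against control liver, CYP2D6 was 0.026 scaled to the Alexa647 rows, 0.40 after quantile normalization and 0.019 on the authors' values. CYP4F2 was 0.084 scaled to the Alexa647 rows, and UGT1A1 was 0.029 there and 0.023 on the authors' values. PON3 was -0.039 with the blank subtracted and ran from -0.11 to 0.11 when 1 sample was left out, negative without control liver 3, Ha-ras tumor 1 or Ha-ras tumor 3. For Ctnnb1 tumors against PB control liver, PON3 was 0.070 scaled to the Alexa647 rows and 0.020 on the authors' values. For PB against no-PB control liver, CYP2D6 was -0.088 after quantile normalization, and UGT1A1 passed at 1.14 without centring and 0.999 with array weights (adjusted p = 0.0349). Between the tumors, CYP2D6 was -0.68 after quantile normalization, CYP4F2 was 0.37 and UGT1A1 0.80 without centring. In the difference between arms, CYP4F2 was 0.028 after quantile normalization. With the replicate number as a block, CYP2D6 was -0.026 and CYP4F2 -0.092 between the tumors, and UGT1A1 was 0.045 in the difference between arms with the number counted within its arm. Against PB control liver in Ctnnb1 tumors the block within the arm gave -0.099 for UGT1A1 and -0.098 for CYP4F2, and between the tumors UGT1A1 was 0.016. No enzyme passed under either block, and 2 of 6 control livers correlated best with the tumor of their own number. Calls over all antibodies were 1 for Ctnnb1 tumors against control liver with array weights (0 in the report). Of the calls in Ha-ras tumors against control liver, 16 of 22 were higher, and 20 of 24 on the authors' values. For PB the calls were 5 without centring, 8 with only the groups compared and 5 with array weights (3 in the report), all but 1 of the 8 in the detoxification list (5, 7 and 5). Between the tumors the list had 13 calls without centring (8 in the report), and over all antibodies 9 of 30 calls were higher as reported, 19 of 28 without centring and 11 of 21 scaled to the Alexa647 rows. In the difference between arms calls over all were 3 scaled to the Alexa647 rows, 5 with the blank subtracted, 3 on the authors' values and 17 with array weights (8 in the report). In the list they were 4 after quantile normalization, 2 with the blank subtracted, 0 on the authors' values, 3 with array weights, 0 under the block and 1 to 4 when 1 sample was left out, with 4 without Ctnnb1 tumor 6 (1 in the report). Ratios were also recomputed under alternatives chosen after seeing the data. After quantile normalization CYP2D6 to UGT1A1 under PB was -0.35, CYP4F2 to UGT1A1 -0.084 and CYP2D6 to CYP4F2 -0.26, and CYP2D6 to PON3 was 0.36 in Ha-ras and -0.13 in Ctnnb1 tumors against control liver. Without PB control liver 5 they were -0.41, -0.46 and 0.047 under PB, and CYP2D6 to PON3 in Ctnnb1 tumors was -0.19, or -0.22 without Ctnnb1 tumor 6. The causes were not tested. CYP4F2 and PON3 stood within 6 blanks, which limits what small differences of either can show.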
